A study of Mus musculus with 12 samples.

Results

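The genes described here are 7 early neural genes of the mouse, namely the transcription factor genes Sox1, Pax6, Pax3 and Sox11 and the structural or surface protein genes Nes, Tubb3 and Ncam1, taken by symbol from the 54446 genes listed for each library. They had been chosen by results of these same libraries, since Sox1 and Pax6 were among the genes most increased over time in KH cells. Which values selected the other 5 is not stated. All comparisons of the 7 genes are therefore given as a description, with no p-value. RNA had been sequenced from 12 libraries of mouse embryonic stem (ES) cells, in 6 groups of 2.

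The 2 lines are named E14 KH and E14 DNMT3ABKO in the labels and are written KH and DNMT3ABKO below. KH is the wild-type line, and DNMT3ABKO carries knockouts of Dnmt3a and Dnmt3b, the genes of the de novo DNA methyltransferases. The inhibitor Ink128, which blocks the mTOR kinase (mTORi), was applied to each line, and libraries were made from untreated cells (0 h) and at 72 and 144 h. The study's methods give mitomycin-treated feeder cells for wild-type KH2 and Dnmt3a/b knockout cells, and do not name the type of these feeders. The feeder-free E14 lines they list are wild-type, Tet1/2 knockout and tagged Tet cells, without a Dnmt3a/b knockout. The labels nevertheless put E14 before both line names. Fibroblast genes were expressed at 0 h in both lines, as given below. Viable cells were sorted before RNA was extracted. Each genotype is represented by 1 line, so genotype and line cannot be told apart, and without an untreated culture at 72 or 144 h the treatment cannot be told apart from time in culture. The study states in general that its experiments were repeated independently and that the time points of a biological replicate were handled side by side. The labels do not say how these replicates were made, so errors cover the spread between these libraries.

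SOX1, with SOX2 and SOX3, belongs to the SOXB1 group of transcription factors and is one of the first factors to mark cells that enter the neural lineage. PAX6 and PAX3 are paired-box factors of the neural tube, where PAX6 marks radial glia and forebrain progenitors and PAX3 marks its dorsal part and the neural crest. SOX11, a SOXC factor, follows in committed precursors, whereas nestin (Nes) is an intermediate filament of neural stem cells, Tubb3 encodes the beta-tubulin typical of neurons and Ncam1 encodes a cell adhesion molecule of neural and other tissues. ES cells that self-renew are known to keep most of this programme low.

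Values are TPM, transcript counts on a fixed library total of 1000000, which correct for gene length and give each gene's share of a library's RNA. A fall in TPM in bulk RNA cannot tell fewer cells of a type from less RNA per cell, and TPM keeps no read depth. Between 15178 and 15811 genes per library stood at 1 TPM or more. The replicates of DNMT3ABKO at 0 h were less alike than those of the other 5 groups (r = 0.985 against 0.994 to 0.996 over genes), so the line differences at 0 h are followed by their range over fits that each left out 1 library. As a check of the line labels, DNMT3ABKO cells at 0, 72 and 144 h held 0.168, 0.202 and 0.176 of the KH mean of Dnmt3a and 0.105, 0.141 and 0.0890 of that of Dnmt3b. The KH libraries at 144 h were far apart for Dnmt3a, at 76.3 and 143.6 TPM. Both DNMT3ABKO libraries of that time lay below them, at 21.9 and 16.9 TPM.

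Sox1 (ENSMUSG00000096014.1, mm10 chromosome 8, 12395295 to 12400126, plus strand, a single exon) had the steepest course of the 7 genes in KH cells. Its 2 KH libraries held 0.492 and 0.521 TPM at 0 h, 5.66 and 5.50 TPM at 72 h and 13.3 and 13.4 TPM at 144 h. The 3 time points did not overlap, and the mean at 144 h was 26.3 times that at 0 h. DNMT3ABKO cells followed the same course to 72 h only, with 0.478 and 0.599 TPM at 0 h, 6.59 and 6.12 TPM at 72 h, and then 4.54 and 4.95 TPM at 144 h. The 144 h libraries of DNMT3ABKO thus lay below its own 72 h libraries, at 0.746 of their mean, and far below the KH libraries of the same time.

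On the log2(TPM + 1) scale, which understates the change of low genes, the Sox1 difference in KH cells was 2.13 at 72 h and 3.25 at 144 h against 0 h (SE 0.09 each, n = 2 per group). In DNMT3ABKO cells the corresponding values were 2.26 and 1.90, and the step from 72 to 144 h was -0.36, against 1.12 in KH cells. The lines differed by 0.03 at 0 h (range -0.03 to 0.09), by 0.16 at 72 h and by -1.32 at 144 h (SE 0.09), so that the Sox1 gap between lines was seen at 144 h. Leaving out either DNMT3ABKO library at 0 h moved the line difference in the 144 h response from -1.35 to -1.41 or -1.29. Sox1 lies on chromosome 8, where the median of 791 tested genes was -0.14, -0.13 and -0.18 (log2, DNMT3ABKO minus KH at 0, 72 and 144 h), against -0.06, -0.04 and -0.04 over all genes. The part of this chromosome-wide shift in the Sox1 values was not tested.

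**Figure D1:**
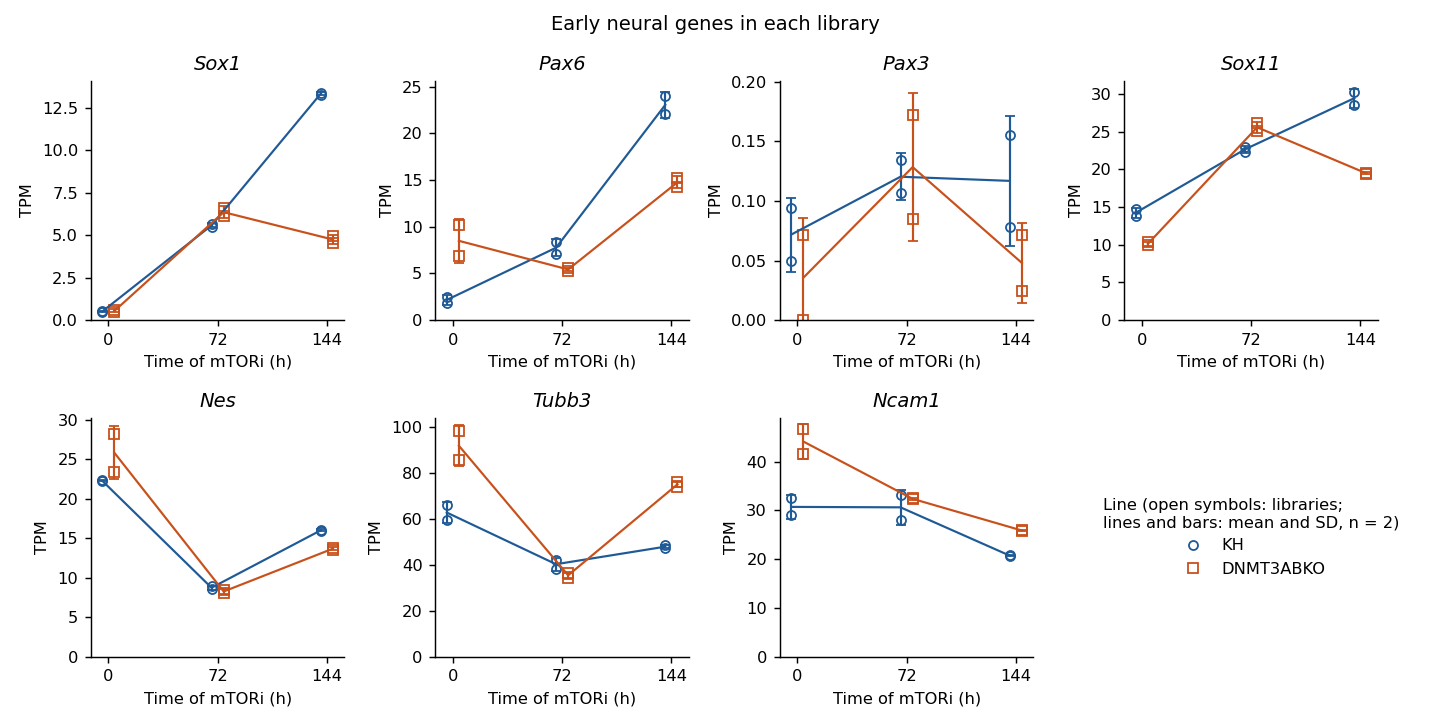
TPM of the 7 early neural genes (y axis, linear, from 0) against hours of mTORi (x axis) in KH (blue circles) and DNMT3ABKO (orange squares) libraries, slightly offset along the x axis, with lines and bars for the mean and SD (n = 2). Sox1, Pax6 and Sox11 in KH libraries were highest at 144 h, whereas in DNMT3ABKO libraries Sox1 and Sox11 were highest at 72 h, Nes and Tubb3 were lowest at 72 h in both lines, and Pax3 stayed under 0.2 TPM.

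Sox11 (ENSMUSG00000063632.6, chromosome 12, 27334264 to 27342574, minus strand, a single exon) was already present at 0 h. As for Sox1, its values from 72 to 144 h rose in KH and fell in DNMT3ABKO cells. Unlike for Sox1, the lines already differed at 0 h. KH libraries stood at 14.7 and 13.7 TPM at 0 h, 22.3 and 23.0 TPM at 72 h and 30.3 and 28.5 TPM at 144 h, with no overlap between times. DNMT3ABKO libraries stood at 9.93 and 10.3 TPM, then at 26.1 and 25.0 TPM and finally at 19.4 and 19.5 TPM, so the 72 h libraries were the highest of that line. At 72 and 144 h the log2 difference from 0 h in KH cells was 0.64 and 1.00, and that of DNMT3ABKO cells was 1.26 and 0.88 (SE 0.07 each). From 72 to 144 h it was 0.36 in KH and -0.38 in DNMT3ABKO cells. The line difference in response was 0.62 at 72 h and -0.12 at 144 h (SE 0.10), and between the lines themselves it was -0.45 at 0 h (range -0.50 to -0.41), 0.17 at 72 h and -0.57 at 144 h.

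Pax6 (ENSMUSG00000027168.21, chromosome 2, 105668900 to 105697364, plus strand, with 26 annotated transcripts) differed between the lines before treatment. KH libraries held 1.80 and 2.51 TPM at 0 h, 7.09 and 8.40 TPM at 72 h and 22.0 and 24.0 TPM at 144 h, a mean 10.7 times higher at 144 h than at 0 h. DNMT3ABKO libraries held 6.84 and 10.1 TPM at 0 h, 5.28 and 5.55 TPM at 72 h and 14.3 and 15.2 TPM at 144 h. Every DNMT3ABKO library at 0 h was thus above both KH libraries, while at 72 and 144 h every DNMT3ABKO library was below them.

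In log2 terms KH cells at 72 and 144 h differed from 0 h by 1.48 and 2.94 for Pax6, and DNMT3ABKO cells by -0.54 and 0.75 (SE 0.17 each). From 72 to 144 h the steps were similar in size, at 1.46 in KH and 1.30 in DNMT3ABKO cells. The lines differed by 1.57 at 0 h (range 1.32 to 1.83), by -0.44 at 72 h and by -0.61 at 144 h (SE 0.17), and their responses differed by -2.02 at 72 h and -2.18 at 144 h (SE 0.23). Pax6 is the gene most affected by the spread of DNMT3ABKO at 0 h: leaving out replicate 1 or 2 of that group gave -0.80 or -0.29 for the 72 h difference, and the line difference in the 144 h response then ranged from -2.44 to -1.93.

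Pax3 (ENSMUSG00000004872.15, chromosome 1, 78101267 to 78197134, minus strand) was close to 0 throughout and was not tested. KH libraries were at 0.0938 and 0.0498 TPM at 0 h, 0.106 and 0.134 TPM at 72 h and 0.0783 and 0.156 TPM at 144 h. In DNMT3ABKO cells it was listed at 0 in replicate 1 and at 0.0712 TPM in replicate 2 at 0 h, at 0.172 and 0.0847 TPM at 72 h and at 0.0240 and 0.0718 TPM at 144 h. In both lines the 72 h libraries lay above those of 0 h, and at 144 h the DNMT3ABKO libraries lay below the KH libraries, but all values were under 0.2 TPM and no test was made.

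Nes (ENSMUSG00000004891.16, chromosome 3, 87971078 to 87980451, plus strand) took the opposite course at 72 h. KH libraries stood at 22.3 and 22.2 TPM at 0 h, 8.55 and 8.93 TPM at 72 h and 16.1 and 15.9 TPM at 144 h. DNMT3ABKO libraries stood at 28.2 and 23.4 TPM, 8.51 and 8.02 TPM, and 13.8 and 13.6 TPM. Both lines were thus lowest at 72 h and in between at 144 h, with no overlap between times. The log2 difference at 72 h was -1.26 in KH and -1.53 in DNMT3ABKO cells, and at 144 h it was -0.45 and -0.86 (SE 0.09 each). Without replicate 1 or 2 of DNMT3ABKO at 0 h, the 72 h value of that line was -1.40 or -1.66. Vim, whose product forms filaments together with nestin and which fibroblasts also express, fell further, from 587 ± 71.6 to 142 ± 3.63 TPM in KH cells at 144 h (log2 fold change -2.03, adjusted p = 5.16e-08, limma) and from 796 ± 7.49 to 141 ± 1.63 TPM in DNMT3ABKO cells.

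Tubb3 (ENSMUSG00000062380.4, chromosome 8, 123411424 to 123422015, plus strand) had the highest TPM of the 7 genes in each of the 6 groups. KH libraries held 59.7 and 65.9 TPM at 0 h, 42.2 and 38.4 TPM at 72 h and 47.4 and 48.5 TPM at 144 h. DNMT3ABKO libraries held 85.7 and 98.2 TPM, 34.3 and 36.6 TPM, and 76.0 and 74.1 TPM. The dip at 72 h was followed by a return in DNMT3ABKO cells (log2 difference from 72 to 144 h 1.06, SE 0.09) that was smaller in KH cells (0.25). The lines differed by 0.54 at 0 h (range 0.44 to 0.64), -0.18 at 72 h and 0.64 at 144 h, so Tubb3 was higher in DNMT3ABKO libraries at 0 and 144 h, against the direction of the chromosome 8 median. Tubb3 made up 1.74% to 4.02% of the summed TPM of 7 beta-tubulin genes, of which Tubb5 alone held 1051 to 1341 TPM (group means).

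Ncam1 (ENSMUSG00000039542.16, chromosome 9, 49502136 to 49798925, minus strand) was lower at 144 h than at 0 h in both lines. The KH values were 29.0 and 32.4 TPM at 0 h, 33.2 and 28.1 TPM at 72 h and 20.6 and 20.8 TPM at 144 h. The KH libraries of 0 and 72 h overlapped. DNMT3ABKO libraries held 41.6 and 46.6 TPM, 32.5 and 32.2 TPM, and 25.9 and 25.8 TPM, which was a decline without overlap. From 0 to 144 h the log2 difference was -0.54 in KH and -0.75 in DNMT3ABKO cells (SE 0.09 each), and DNMT3ABKO libraries exceeded KH libraries by 0.51 at 0 h (range 0.43 to 0.59) and 0.31 at 144 h. Its relative Ncam2 remained under 0.06 TPM in all libraries.

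**Figure D2:**
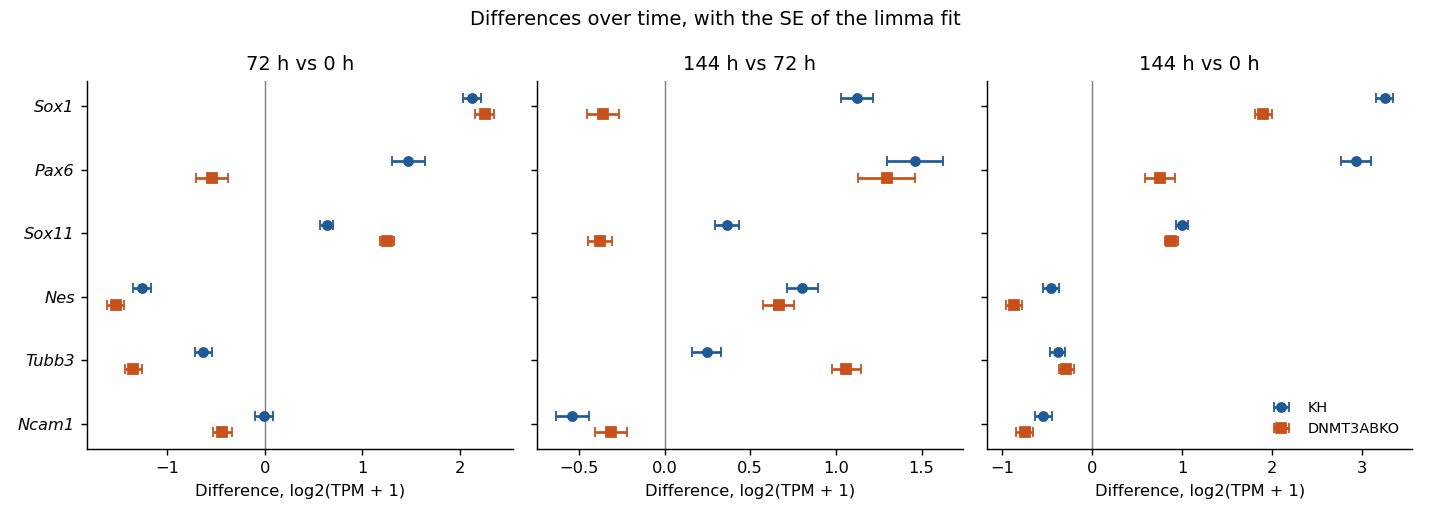
Differences over time on the log2(TPM + 1) scale (x axis) for the 6 genes tested, whose mean was 1 TPM or more (y axis), in KH (blue circles) and DNMT3ABKO (orange squares), with the SE of the fit as bars. Between 72 and 144 h the Sox1 difference was 1.12 in KH and -0.36 in DNMT3ABKO cells, and the Sox11 difference was 0.36 and -0.38.

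The order of the levels, which TPM allows because it is per length, changed with time. In KH cells at 0 h it ran Tubb3, Ncam1, Nes, Sox11, Pax6, Sox1 and Pax3, and at 144 h it ran Tubb3, Sox11, Pax6, Ncam1, Nes, Sox1 and Pax3. Of the 36 pairs of neighbours in these orders over the 6 groups, only Sox11 and Pax6 in DNMT3ABKO cells at 0 h had overlapping libraries. At 144 h DNMT3ABKO cells kept Ncam1 (25.9 TPM) above Sox11 (19.5 TPM) and Pax6 (14.8 TPM), whereas KH cells had Sox11 (29.4 TPM) and Pax6 (23.0 TPM) above Ncam1 (20.7 TPM).

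Sox1 stayed far below Sox2 in every group. In KH cells it contributed 0.229% to 0.233% of the summed TPM of Sox1, Sox2 and Sox3 at 0 h and 3.76% to 3.88% at 144 h. In DNMT3ABKO cells its share was 2.49% to 2.53% at 72 h and 1.40% at 144 h. The share of Sox3 was below that of Sox1 in KH cells at 72 h (1.22% to 1.49% against 1.73% to 1.76%) and at 144 h (2.63% to 2.65%), and above it in the other 4 groups. Sox2, a factor of both pluripotent and neural cells, stood between 185 and 327 TPM in the 6 groups, and Sox3 rose in both lines, from 2.91 ± 0.0257 to 9.21 ± 0.190 TPM in KH cells (SD, n = 2; log2 fold change at 144 h 1.39, adjusted p = 2.16e-06) and from 3.81 ± 0.269 to 10.8 ± 0.291 TPM in DNMT3ABKO cells (1.30, adjusted p = 2.01e-06). The SOXC gene Sox12 resembled Sox11 in its line difference at 144 h, with means of 37.3 ± 0.345 TPM for KH cells and 23.9 ± 1.06 TPM for DNMT3ABKO cells (log2 difference -0.62, adjusted p = 0.000459). Sox4, the third SOXC gene, rose in KH cells at 144 h (0.51, adjusted p = 0.000262) and stood at -0.04 in DNMT3ABKO cells (adjusted p = 0.705).

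The start regions of the genes are shown because the lines differ in DNA methyltransferases, whose target is the CpG dinucleotide. RefSeq windows of 300 bases (GRCm38.p6, 250 before to 50 after an annotated start) matched 5 of the 7 genes, and none matched Pax3 or Ncam1. The Sox1 window held 37 CpG, more than 94.4% of the 32851 windows of all genes, Tubb3 held 26, Sox11 held 21 and Nes held 18. Pax6 has windows at 2 starts, with 18 and 16 CpG, the second of which lies 13563 bases downstream of the gene's first annotated base. The median of all windows was 7 and their upper quartile 20. The 250 bases upstream of the first Pax6 start, of Sox11 and of Nes are printed 5′ to 3′ on the gene's strand, with each CpG in capitals, and the last 15 bases of the Nes stretch lie inside the GENCODE transcript. Those of Sox1 and Tubb3 are left out because the GENCODE transcript begins 224 and 129 bases before the RefSeq start.
Pax6, chr2:105668646-105668895, plus strand: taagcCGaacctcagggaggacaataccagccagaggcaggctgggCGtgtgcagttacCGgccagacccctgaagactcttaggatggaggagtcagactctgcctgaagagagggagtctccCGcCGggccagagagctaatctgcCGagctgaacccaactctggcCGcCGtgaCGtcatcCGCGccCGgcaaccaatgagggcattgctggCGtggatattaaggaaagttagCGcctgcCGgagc
Sox11, chr12:27342719-27342968, minus strand: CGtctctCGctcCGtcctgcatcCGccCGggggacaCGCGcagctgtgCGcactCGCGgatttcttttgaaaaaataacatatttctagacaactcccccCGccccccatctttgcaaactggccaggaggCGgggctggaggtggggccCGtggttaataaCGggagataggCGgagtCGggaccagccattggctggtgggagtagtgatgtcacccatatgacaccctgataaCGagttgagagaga
Nes, chr3:87970843-87971092, plus strand: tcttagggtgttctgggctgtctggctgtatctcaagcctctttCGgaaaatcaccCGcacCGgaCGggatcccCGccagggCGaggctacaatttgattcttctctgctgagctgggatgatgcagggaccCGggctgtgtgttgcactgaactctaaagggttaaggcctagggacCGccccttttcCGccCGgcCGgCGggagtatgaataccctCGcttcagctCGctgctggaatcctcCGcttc

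The windows were searched on both strands for a few short motifs. The E-box CACGTG was in none of the 5 genes and in 7.15% of all windows. The TATA motif, spelled TATAAA, was in none of the 5 and in 13.6% of all windows. The box spelled CCAAT was in the windows of Sox1, Sox11, Tubb3 and the first Pax6 start and in 37.4% of all windows. ATGCAAAT, the octamer bound by POU factors, was in the Sox1 window alone among the 5 genes, and in 1.74% of all windows. It stands here in capitals within 30 bases, and its first base lies 18 bases after the RefSeq start.
Sox1, chr8:12395526-12395555, plus strand: gccagcgcgccATGCAAATcaccgccgccg
A match is a description of the letters and not a binding site, and no binding or methylation values were used here.

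How many of the 6 tested genes limma called (adjusted p under 0.05 over all 15727 tested genes) is given only for completeness, and nothing is read from it, because the genes were selected on these libraries. In KH cells 3 were called higher and 2 lower at 72 h against 0 h, where 28.3% and 19.5% of all tested genes were called. At 144 h against 0 h the counts were 3 and 3 (27.4% and 23.9% of all genes), and at 144 h against 72 h they were 4 and 1 (7.24% and 15.6%). In DNMT3ABKO cells they were 2 and 4 at 72 h (34.3% and 21.6%), 3 and 3 at 144 h (31.4% and 26.2%), and 3 and 3 between 72 and 144 h (8.81% and 18.5%).

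Between the lines, 3 of the 6 were called higher and 1 lower in DNMT3ABKO than in KH cells at 0 h (4.92% and 4.14% of all genes), 0 and 0 at 72 h (9.26% and 10.0%), and 2 and 3 at 144 h (11% and 15.5%). The response differed between lines upwards for 1 and downwards for 2 at 72 h (3.38% and 1.86%), and for 0 and 2 at 144 h (4.89% and 3.70%). Without either KH library at 144 h or either DNMT3ABKO library at 144 h, 3 rather than 5 were called between the lines at that time, with Pax6 and Ncam1 lost. With the replicate number as a block 4 were called, with Ncam1 lost. Rescaling libraries by median ratios shifted the median over all tested genes most in DNMT3ABKO cells at 72 h, by -0.12, and the share of higher calls from 59.1% to 46.4% and from 61.3% to 48.5% for KH and DNMT3ABKO at 72 h against 0 h, and from 31.7% to 43.9% and from 32.3% to 47.6% for 144 h against 72 h.

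A wider list of 52 neural genes, without the 7, is given as a description. It was drawn up with earlier results of these data known, so its counts and medians are no independent support. The list holds Sox2, which is also among the ES cell markers, and Gbx2 and Foxd3, which ES cells express too. Of its 52 genes, 35 were tested and 12 stayed under 1 TPM in all 12 libraries. The list median is set beside the median of all tested genes. In KH cells 18 rose and 8 fell at 72 h, where 28.3% of all tested genes rose and 19.5% fell (median log2 fold change 0.35 against 0.08 over all genes), and 19 rose and 8 fell at 144 h, where 27.4% and 23.9% did (0.48 against 0.05). In DNMT3ABKO cells 21 rose and 7 fell at 72 h, with 34.3% and 21.6% over all genes (0.37 against 0.12), and 18 rose and 10 fell at 144 h, with 31.4% and 26.2% over all genes (0.41 against 0.05).

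Of the neural transcription factors 15 were tested. At 144 h 11 of them rose and 3 fell in KH cells, while 10 rose and 4 fell in DNMT3ABKO cells, beside the shares of all genes just given. Sox21, a SOX factor of neural progenitors, rose from 1.41 ± 0.169 to 7.59 ± 0.132 TPM in KH cells (log2 fold change 1.84, SE 0.09, adjusted p = 2.3e-07) and from 1.89 ± 0.0910 to 7.93 ± 0.314 TPM in DNMT3ABKO cells (1.63, adjusted p = 2.73e-07). Gbx2, a homeobox factor of the anterior hindbrain that ES cells also express, rose most at 72 h, from 10.1 ± 1.97 to 54.0 ± 1.96 TPM in KH cells (2.31, adjusted p = 4.66e-07), and stood at 35.6 ± 1.67 TPM at 144 h. En2, a midbrain and hindbrain factor, rose from 2.34 ± 0.0947 to 6.59 ± 0.707 TPM in KH cells at 72 h (1.18, adjusted p = 9.94e-06). Hesx1, a forebrain and pituitary factor, fell from 3.59 ± 0.214 to 0.196 ± 0.103 TPM in KH cells at 144 h (-1.94, adjusted p = 3.83e-06).

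Some factors differed between the lines. Zic2, a zinc finger factor of the neural plate, was like Pax6 higher in DNMT3ABKO cells at 0 h, with libraries at 48.6 and 60.5 TPM against 24.3 and 25.1 TPM in KH (log2 difference 1.10, range 0.95 to 1.26, adjusted p = 4.57e-05). It rose at 144 h to 87.8 ± 0.0700 TPM in KH cells (1.79, adjusted p = 2.39e-07) and to 103.3 ± 1.63 TPM in DNMT3ABKO cells (0.92, adjusted p = 1.48e-05), and the line difference in that response was -0.87 (adjusted p = 0.00205). Unlike Pax6, Zic2 libraries at 144 h were higher in DNMT3ABKO than in KH cells (0.23, adjusted p = 0.0879). Meis2, a homeobox cofactor of PAX factors, rose in KH cells from 2.55 ± 0.600 to 12.1 ± 0.342 TPM at 144 h (1.89, adjusted p = 6.36e-06) and stood at 2.22 ± 0.609 and 2.04 ± 0.306 TPM in DNMT3ABKO cells at 0 and 144 h. The line difference in the 144 h response of Meis2 was -1.97 (SE 0.22, adjusted p = 0.000265). Pou3f1, a POU factor of early neural cells, rose at 72 h in DNMT3ABKO cells from 6.83 ± 0.262 to 19.9 ± 0.0525 TPM (1.42, adjusted p = 1.45e-06), while the KH value at 72 h was 0.19 (adjusted p = 0.113) and the line difference was 1.23 (adjusted p = 0.000771).

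Among dorsal and neural crest genes, 6 of 8 were tested, and 1 rose and 2 fell at 144 h in each line. Of all tested genes 27.4% rose and 23.9% fell in KH cells, and 31.4% and 26.2% did in DNMT3ABKO cells. Foxd3, a factor of neural crest and of ES cells, rose in KH cells from 7.56 ± 1.47 to 31.7 ± 2.49 TPM at 72 h (1.94, adjusted p = 2.68e-06) and stood at 12.1 ± 0.756 TPM at 144 h. Snai2, which acts in migrating crest cells and is also expressed by fibroblasts, fell at 144 h by 1.83 in KH cells (adjusted p = 0.000151) and by 1.53 in DNMT3ABKO cells (adjusted p = 0.000349). Of proneural and Notch genes 4 of 8 were tested. At 144 h 2 rose and 0 fell in KH cells, and 1 rose and 1 fell in DNMT3ABKO cells, beside the same shares. Dll1, a Notch ligand, rose at 144 h in KH (1.06, adjusted p = 1.25e-05) and DNMT3ABKO cells (0.73, adjusted p = 0.000109). Neurod1 was called higher in KH cells (0.51, adjusted p = 0.00367) and was not called in DNMT3ABKO cells (-0.02, adjusted p = 0.915). Hes1 was called lower in DNMT3ABKO cells (-0.25, adjusted p = 0.0476) and was not called in KH cells (-0.02). The line difference in the 144 h response was called for neither, at -0.53 for Neurod1 (adjusted p = 0.0731) and -0.24 for Hes1 (adjusted p = 0.347). Hes5 was called in neither line at 144 h against 0 h, at group means of 0.271 to 1.75 TPM over all times. It fell at 72 h by 0.77 in KH (adjusted p = 0.00591) and by 0.66 in DNMT3ABKO cells (adjusted p = 0.0104). From 72 to 144 h it rose by 1.11 (adjusted p = 0.00188) and 0.66 (adjusted p = 0.0209). The proneural genes Neurog1 and Neurog2 had maxima of 0.804 and 0.0733 TPM over the 12 libraries.

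Neural stem cell and neuronal structure genes numbered 12, with 10 tested. At 144 h 5 rose and 3 fell in KH cells, where 27.4% and 23.9% of all tested genes did. In DNMT3ABKO cells 6 rose and 3 fell, where 31.4% and 26.2% of all tested genes did. Elavl3, an RNA-binding protein of neurons, rose at 144 h from 2.64 ± 0.136 to 6.64 ± 0.411 TPM in KH cells (1.07, adjusted p = 4.78e-05) and from 3.31 ± 0.712 to 10.1 ± 0.322 TPM in DNMT3ABKO cells (1.38, adjusted p = 5.28e-06). Msi1, an RNA-binding protein of neural stem cells, rose at 144 h to 27.7 ± 1.05 TPM in KH cells (0.99, adjusted p = 5.39e-06). Nefl, the light neurofilament chain, fell at 144 h in both lines, by 0.98 in KH (adjusted p = 1.57e-06) and by 1.03 in DNMT3ABKO cells (adjusted p = 6.03e-07). Nefm, the medium chain, was higher in DNMT3ABKO than in KH cells at each time, by 1.52 at 0 h (adjusted p = 3.06e-05), 2.43 at 72 h (adjusted p = 3.91e-07) and 1.85 at 144 h (adjusted p = 1.39e-06). Dcx, a marker of migrating neuroblasts, did not exceed 0.0453 TPM.

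**Figure D3:**
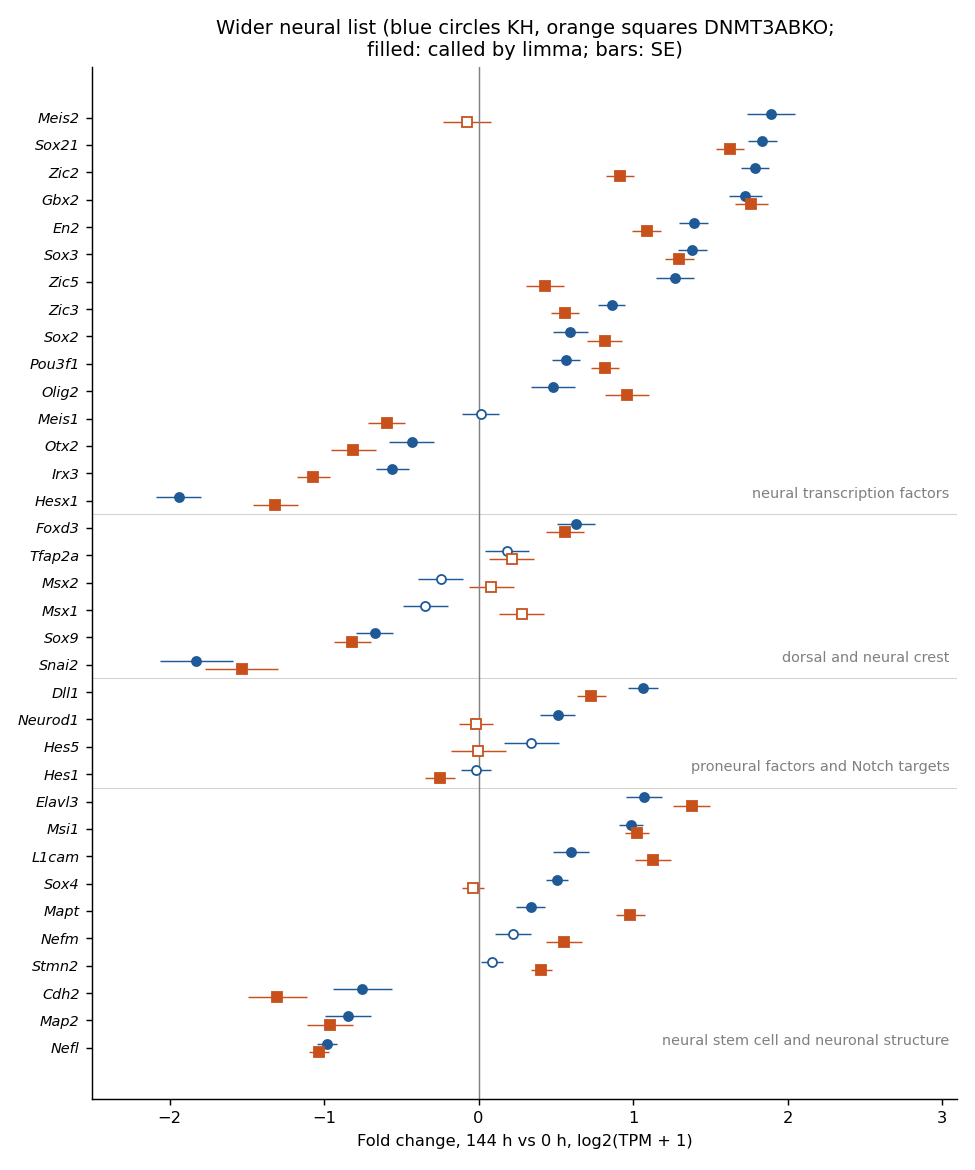
Log2 fold change at 144 h against 0 h on the log2(TPM + 1) scale (x axis) for the 35 tested genes of the wider neural list (y axis, grouped by sub-list), with blue circles for KH, orange squares for DNMT3ABKO, filled symbols for genes called by limma and bars for the SE. Meis2 stood at 1.89 in KH and at -0.08 in DNMT3ABKO cells, whereas Sox21 stood at 1.84 and 1.63.

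Between the lines, 5 of the 35 were higher and 4 lower in DNMT3ABKO cells at 0 h, beside 4.92% and 4.14% of all tested genes. At 72 h 11 were higher and 4 lower (9.26% and 10.0% of all), and at 144 h 5 were higher and 9 lower (11% and 15.5% of all). Meis2 (-2.11, adjusted p = 4.64e-06), Neurod1 (-1.09, adjusted p = 7.71e-05) and Meis1 (-0.75, adjusted p = 0.00136) were lower in DNMT3ABKO cells at 144 h. Without replicate 1 of KH at 144 h, 9 rather than 14 genes were called at that time. The response at 144 h differed for 5 genes, 1 upwards and 4 downwards, where 4.89% and 3.70% of all tested genes did. These counts and their balance changed with the libraries used. Without replicate 1 of KH at 0 h there were 0 upwards and 3 downwards, without replicate 1 of DNMT3ABKO at 0 h 1 and 10, and without its replicate 2 they were 6 and 4. With median-ratio scaling 3 were upwards and 8 downwards.

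Markers of other cells moved with time as well, and their part in the values of the 7 genes was not tested. The summed TPM of 22 fibroblast genes was 3020 to 3613 at 0 h, 1146 to 1445 at 72 h and 508 to 741 at 144 h. At 144 h 20 of the 21 tested genes fell in KH and 21 in DNMT3ABKO cells, where 23.9% and 26.2% of all tested genes fell. Their median log2 fold changes were -3.365 and -3.398, against 0.049 and 0.054 over all tested genes. Fn1 held most of the 144 h sum. Its KH libraries stood at 526 and 440 TPM, and its DNMT3ABKO libraries at 292 and 282.5 TPM. For KH cells Fn1 was the tested gene not called lower (log2 fold change -0.22, adjusted p = 0.228, limma). Col1a1 stood at 369 ± 4.38 TPM in KH cells at 0 h and at 9.67 ± 1.48 TPM at 144 h, and none of the 22 was at 0 in both libraries of a group. The sum of 10 macrophage genes went from 248 to 306 TPM at 0 h to 20.5 to 36.3 TPM at 144 h, with C1qb at 0 in both KH libraries at 144 h and the other 9 detected. Cd68 held most of this sum at 144 h, with means of 15.1 TPM (KH) and 22.3 TPM (DNMT3ABKO). The DNMT3ABKO mean of Cd68 at 0 h was 23.2 TPM, and its change to 144 h was not called (log2 fold change -0.045, adjusted p = 0.769, limma). The sum of 12 mesoderm and endoderm genes at 0 h was 38.0 to 40.1 TPM in the KH line but 16.0 to 19.1 TPM in DNMT3ABKO, and at 144 h it was 7.37 to 10.6 TPM in both. T held the largest part of it at 0 h, with means of 18.5 TPM (KH) and 6.41 TPM (DNMT3ABKO). Of the 4 genes tested, 0 rose and 2 fell at 144 h in each line, where 23.9% (KH) and 26.2% (DNMT3ABKO) of all tested genes fell. Sox17 went the other way, from 0.399 to 1.07 TPM in KH and from 0.285 to 1.73 TPM in DNMT3ABKO cells.

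The 10 ES cell markers, which check the labelled cell type, were present in every library, at a sum of 2417 to 2783 TPM at 0 h and 3708 to 3992 TPM later. Of these, 7 rose and 0 fell in KH cells at 144 h, where 27.4% and 23.9% of all tested genes did. In DNMT3ABKO cells 6 rose and 1 fell, where 31.4% and 26.2% did. Tdgf1 rose most in TPM in that line, with means of 308.5 TPM (0 h) and 983.3 TPM (144 h). Utf1 was lower there at 144 h (226.8 TPM) than before treatment (280.2 TPM). Nanog was lower there at 72 h (185.5 TPM) than before treatment (264.3 TPM). At 144 h against 0 h, Nes, Tubb3, Ncam1 and the fibroblast sum were lower in both lines. Sox1, Pax6, Sox11 and the ES cell sum were higher in both. At 144 h against 72 h, Ncam1 and the fibroblast sum were lower in both lines, and Nes, Tubb3 and Pax6 were higher in both. Sox1 and Sox11 were then higher in KH and lower in DNMT3ABKO cells. Whether the mix of cells had a part in any of these differences was not tested.

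**Figure D4:**
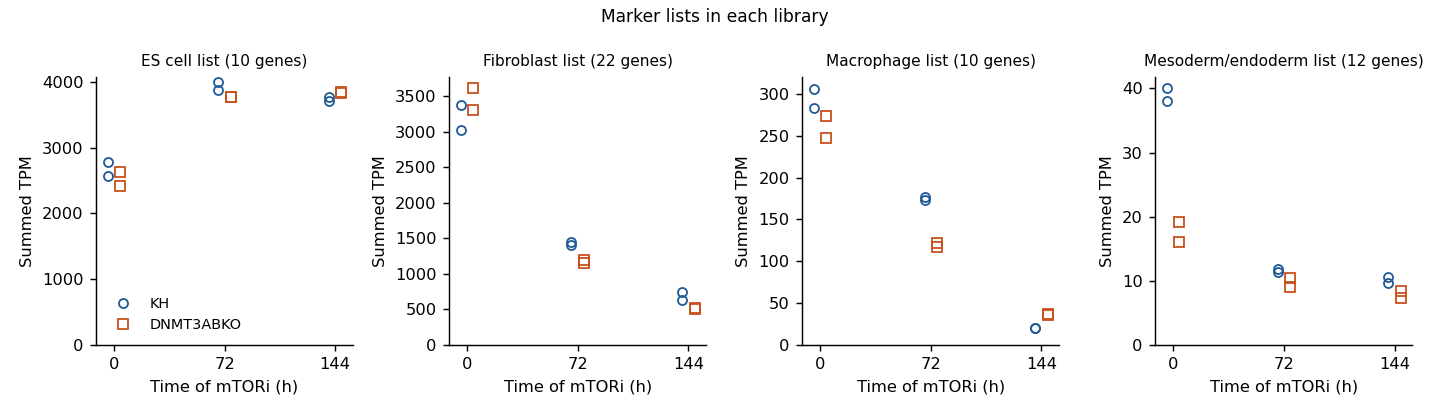
Summed TPM (y axes, linear, from 0) of 4 marker lists in each library against hours of mTORi (x axis), with blue circles for KH and orange squares for DNMT3ABKO. The fibroblast sum was 3020 to 3613 TPM at 0 h and 508 to 741 TPM at 144 h, when Fn1 held most of it. The ES cell sum was 2417 to 2783 TPM at 0 h and 3708 to 3992 TPM at the later times. Within it, Tdgf1 rose most in DNMT3ABKO cells.

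Neighbouring genes were examined because reads could be shared, and the sources used here do not state whether counting used strand. Sox1 lies wholly inside Sox1ot, a long non-coding gene on the same strand with a mean of 0.0737 TPM. Pax6 overlaps 1431 bases of Pax6os1 on the other strand, which had a mean of 0.00284 TPM, and Elp4, 3663 bases beyond the end of Pax6, stood at 8.41 to 14.4 TPM with a log2 fold change in KH cells of 0.48 at 72 h (adjusted p = 0.0179) and 0.36 at 144 h (adjusted p = 0.0558). Next to Tubb3, Def8 (1512 bases away) and Tcf25 (7589 bases away) had log2 values of -0.09 (adjusted p = 0.328) and 0.05 (adjusted p = 0.549) in KH cells at 144 h. Bcan, 7080 bases from Nes, was at 0.482 ± 0.298 TPM in KH cells at 0 h and 1.07 ± 0.0883 TPM at 144 h (0.50, adjusted p = 0.0196), opposite in direction to Nes.

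The genes most like each of the 6 over the 12 libraries were ranked by Pearson's r of log2(TPM + 1), among genes with an SD of at least 0.5 over the libraries, as a description that includes differences between lines and times shared by many genes. Nearest to Sox1 were Camk2n1 (r = 0.991), Dtna (0.985) and Abcc4 (0.984), of which Dtna stood at 2.55, 6.36 and 11.3 TPM in KH and at 2.71, 6.70 and 5.38 TPM in DNMT3ABKO cells at 0, 72 and 144 h. Nearest to Sox11 were Tmem59l (0.980), Etnk1 (0.968) and Lef1 (0.961), the last a nuclear effector of Wnt signalling that at 144 h stood at 27.2 TPM in KH but 16.0 TPM in DNMT3ABKO. Pax6 had less close companions, with Zfp819 (0.906), Col9a2 (0.893) and Zic2 (0.889). Nes was nearest to Syt11 (0.969), Crabp1 (0.960) and Dhcr7 (0.958), Tubb3 to Naaa (0.957), Ass1 (0.903) and Fam167a (0.903), and Ncam1 to Slc18b1 (0.960), Arl14epl (0.944) and Atp2b4 (0.915).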

How the data were processed

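The 12 deposited tables hold TPM per gene, 1 library each. ERCC control RNA had been put into each sample. The authors aligned the reads to mm10 with STAR and quantified genes with StringTie on a GENCODE annotation. The submitters' processing notes give STAR 2.7.3a, StringTie 2.0 and cutadapt 2.4, and the study's methods give other releases of the first 2. No spike-in row is listed, so values are shares of a library. Values were analysed here as log2(TPM + 1). Genes with a mean of 1 TPM or more (15727) were tested with limma 3.58.1 in R 4.3.3 (lmFit and eBayes with trend, 6 group coefficients, Benjamini-Hochberg over all tested genes), on 11 contrasts. The study itself fitted a count model, which TPM do not allow. The fit was tested on simulated data. The study states that time points of a replicate were handled together, whereas deviations of same-numbered libraries correlated at only -0.104 to 0.1 over genes, so the block is given as an alternative. The 7 genes and the other lists were chosen with earlier results of these data known. Besides the 7, the text names from the wider list only genes among the 4 highest and 4 lowest called per contrast with libraries that did not overlap, genes at or within 10000 bases of the 7, the 3 most alike, and close family members. Also named, chosen after their values were seen, are Dcx, Neurog1, Neurog2 and Dll1 and single marker genes. Tables were read with Python 3.11.15 and pandas 2.3.3. Coordinates are those of the tables (mm10, counted from 1). Alternatives were a pseudocount of 0.1, no filter, median-ratio scaling, only the groups compared, a replicate block, a call that also needed an absolute log2 difference of 1, and fits without each library in turn.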

Additional observations from a re-analysis of the deposited data

Results flagged for a closer look

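The lines differed in their response to mTORi by the interaction term of the limma fit for the genes below (DNMT3ABKO minus KH, log2(TPM + 1) scale, 2 libraries per group). The values of the chosen genes are a description only, since these libraries selected them. At 72 h against 0 h the difference was -2.02 for Pax6, 0.62 for Sox11 and -0.72 for Tubb3. Among wider list genes it was 1.23 for Pou3f1 (adjusted p = 0.000771), 0.95 for Nefl (adjusted p = 0.000581), 0.91 for Nefm (adjusted p = 0.0118), 0.66 for Msi1 (adjusted p = 0.0084) and -0.68 for Zic2 (adjusted p = 0.0137). Nefl rose at 72 h in DNMT3ABKO cells (0.43, adjusted p = 0.000345) and fell in KH cells (-0.52, adjusted p = 0.000174). Nefm was not called without replicate 1 of KH at 72 h (0.90) or without either DNMT3ABKO library at 72 h (0.90 and 0.92), and Zic2 was not called without KH replicate 1 at 0 h (-0.66), either KH library at 72 h (-0.68 and -0.69) or DNMT3ABKO replicate 1 at 72 h (-0.65).

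At 144 h against 0 h the difference was -1.35 for Sox1 and -2.18 for Pax6. In the wider list it was -1.97 for Meis2 (adjusted p = 0.000265), -0.87 for Zic2 (adjusted p = 0.00205), -0.84 for Zic5 (adjusted p = 0.0141), -0.54 for Sox4 (adjusted p = 0.00919) and 0.64 for Mapt (adjusted p = 0.0141). Mapt was not called without KH replicate 1 at 0 h (0.59), KH replicate 2 at 144 h (0.60) or DNMT3ABKO replicate 2 at 144 h (0.58), and Zic5 was not called without KH replicate 1 at 0 h (-0.76), KH replicate 1 at 144 h (-0.83) or DNMT3ABKO replicate 1 at 144 h (-0.81).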

How the results depend on the processing

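With a minimum absolute log2 fold change of 1, the tested genes called among the 7 were 3 (KH, 72 h), 2 (KH, 144 h), 1 (DNMT3ABKO, 144 h) and 1 (lines at 144 h). Those of the wider list were 8 and 11 (KH, 72 and 144 h), 10 and 12 (DNMT3ABKO), 3 (lines at 144 h) and 1 (line difference in the 144 h response). The share of all tested genes called at this threshold is not given, so nothing is read from these counts about the lists. Without the filter on low values 3 of the 7 were called between lines at 144 h, and with median-ratio scaling 11 wider genes were called for the line difference in the 144 h response. Leaving out 1 library gave 3 to 6 of the 7 and 9 to 17 wider genes between lines at 144 h, and 3 to 11 wider genes for the line difference in the 144 h response, and the cause was not tested. The other counts stayed within 1.5 times. Among the alternative values of the differences of the 7 genes, 990 moved by less than the replicate SD and 66 by more, with no called one changing sign. Among those of the named wider genes, 1324 kept their side of the threshold and 70 lost their call. A pseudocount of 0.1 TPM raised the Sox1 difference in KH cells at 144 h from 3.25 to 4.47.

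Whether replicate numbers pair these samples is open to doubt, since the study describes parallel handling of a replicate's time points but same-numbered libraries deviated with correlations of -0.104 to 0.1 over genes. With a replicate block within each line the tested genes called among the 7 numbered 5 (KH, 72 h), 6 (KH, 144 h), 6 (DNMT3ABKO, 72 h) and 6 (DNMT3ABKO, 144 h), and 4 rather than 5 between lines at 144 h. Ncam1 was then no longer called between lines at 144 h, nor from 72 to 144 h in DNMT3ABKO cells. Wider genes called with the block numbered 26 and 27 (KH), 28 and 27 (DNMT3ABKO), 12 (lines at 144 h) and 5 (line difference in the 144 h response). The share of all tested genes called with the block is not given, so these counts show only how calls depend on it. With 2 libraries per group, TPM without depth and no spike-in rows, small differences and absolute RNA amounts were not resolvable here.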
